A study of Mus musculus with 36 samples.

Results

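In mouse embryonic fibroblasts of the C57BL/6J strain, a set of RNAs stood far below its unstressed level in the cytoplasm when sorbitol made the medium strongly hyperosmotic. The transcripts described here are the 200 whose RNA was lowest at 700 mOSM 2h relative to unstressed cells. They were the 200 with the lowest ratio of mean FPKM plus 1 between 700 mOSM 2h and Normal Condition, out of 7645 transcripts with a Normal Condition mean of at least 5 FPKM. The choice left out 4 transcripts, which are not analysed here. FPKM is the number of sequenced fragments of a transcript scaled to its length and to the library's total, so levels can be set side by side between transcripts. The other 7445 transcripts of that list are called the other transcripts below.

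The groups were Normal Condition (unstressed cells in growth medium), 500 mOSM 2h, 600 mOSM 2h, 700 mOSM 15min and 700 mOSM 2h, and 4 groups returned from 700 mOSM for recovery. These were 700 mOSM 15min Recovery 15min, 700 mOSM 15min Recovery 2h, 700 mOSM 2h Recovery 15min and 700 mOSM 2h Recovery 2h, named by the time under stress and the time of recovery. Each of the 9 conditions had 2 Ribo-seq libraries (ribosome-protected fragments, here footprints) and 2 RNA-seq libraries of the cytoplasmic extract. The labels name no mutation and no agent other than sorbitol during growth, and describe several plates of cells behind each preparation. The transcript identifiers were not paired with gene names in the tables used here, so the fibroblast identity was not checked by markers and roles of single members are not given.

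Water leaves cells in a hyperosmotic medium, and the cells shrink until transporters and newly made osmolytes restore their volume. Stress of this kind is known to lower protein synthesis, to activate kinase cascades and to change which RNAs are transcribed, exported, stored and degraded. Ribo-seq sequences the stretches of mRNA that ribosomes cover, so footprints per transcript depend both on how much mRNA is present and on how many ribosomes sit on each copy.

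The RNA libraries held 6851958 to 55262396 reads and the footprint libraries 734083 to 9124787, counted on the listed transcripts. The shallowest RNA library was replicate 2 of 700 mOSM 2h, a group the choice itself used. There a member had a median of 161 reads and at least 14, and in replicate 1 a median of 609 and at least 65. Footprint libraries of the same condition were almost as alike as 2 draws from 1 pool, with a chi-square per degree of freedom of 1.005 to 1.085 where sampling alone gives 1. Each pair was therefore averaged and taken as a single sample. Footprint values stand without SD, p-value or replicate check for that reason. RNA libraries of the same condition differed most in the 2 groups that chose the members. The SD over members of the log2 difference between replicates was 0.165 in Normal Condition and 0.195 in 700 mOSM 2h. In the other groups it was 0.069 to 0.128. The 4 RNA libraries labelled 700 mOSM 15min Recovery 2h and 700 mOSM 2h Recovery 15min were deposited under names that describe the other of these conditions. They are called by their labels here, and every value or contrast of these 2 groups says so. The scaling, the filter and the shared limma fit also used these 4 libraries. Nothing in the labels ties the RNA libraries of a group to separate cultures. The p-values are thus set against the spread between libraries, which could be technical only.

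The ratio that chose the members was 0.231 at its lowest and had a median of 0.350, against a median of 0.908 over all 7645 transcripts. There was no gap at the limit. The last 3 transcripts inside had ratios of 0.3866, 0.3868 and 0.3871, and the first 3 outside had 0.3878, 0.3878 and 0.3886. Of the 200, 197 were chosen again on scaled FPKM, and 165 to 170 were chosen again when 1 of the 4 libraries behind the choice was left out. All 200 members passed the filter for testing, a mean of at least 2 scaled FPKM over the 18 RNA libraries, as did 9275 transcripts in all. Scaling used the transcripts listed in all libraries of an assay with a mean of at least 10, and set their typical level equal. These were 5705 transcripts for RNA and 4619 for footprints, and every change is relative to them. Footprint changes are thus relative to transcripts that stayed listed at 700 mOSM. The median footprint change of the other transcripts was −0.78 at 700 mOSM 15min and −0.79 at 700 mOSM 2h.

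The members were long transcripts. Their median length was 5539 nt, with quartiles of 4204 and 7318 nt, against a median of 2705 nt and quartiles of 1695 and 4054 nt in the other transcripts. Lengths were solved from the deposited values. Coding sequence, the part that ribosomes read, had a median of 861 codons in 199 members and 433 codons in 7298 other transcripts. The rest of the transcript, which holds the untranslated regions, had a median of 2573 nt in members and 1054 nt in the others. Both parts of the transcript were thus longer, and the ranges overlapped widely, since members ran between 1012 and 14814 nt.

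**Figure D1:**
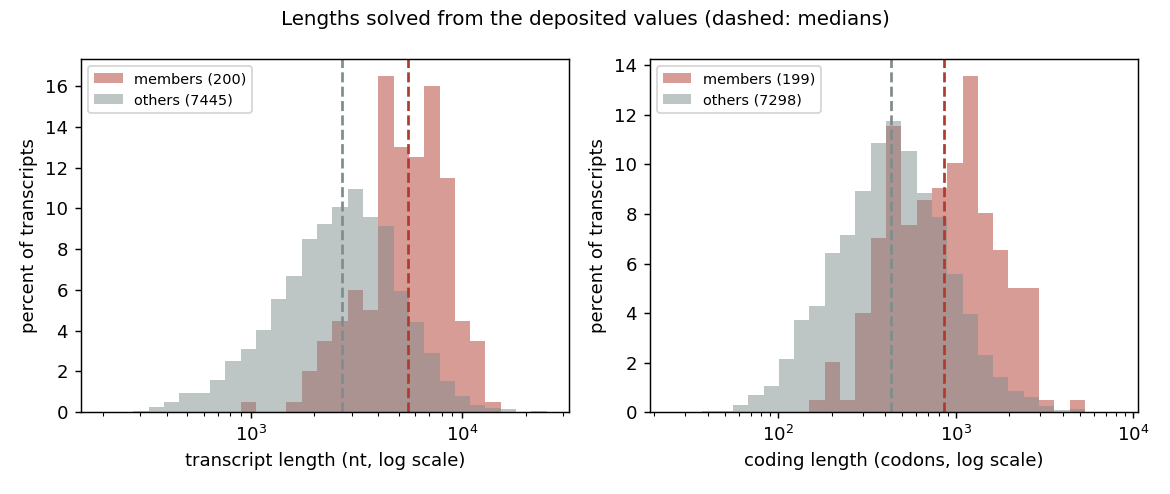
Percent of transcripts (vertical axis) by transcript length in nt (left) and coding length in codons (right), both on log scales, for members (red) and other transcripts (grey), with dashed lines at the medians. Members are shifted to longer transcripts (5539 against 2705 nt) and longer coding sequences (861 against 433 codons), with broad overlap.

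The share of transcripts that were members was larger in each longer class of coding length. Members made up 0.84% of the transcripts of up to 400 codons and 2.48% of those with over 400 and up to 800. Between 800 and 1600 codons they made up 5.78%, and above 1600 codons 11.9%. The longest class still held 260 transcripts that were no members, so most transcripts of that length were not among the members. In unstressed cells the members had a median of 15.8 scaled FPKM of RNA, against 19.8 in the other transcripts, a level that the choice itself limited from below. Their footprints in Normal Condition had a median of 15.4 scaled RPKM, against 31.4 in the other transcripts. RPKM is the footprint counterpart of FPKM, scaled here to the length of the coding sequence. The log2 ratio of footprints to RNA had a median of −0.07 in members and 0.62 in the others. Both values are scaled to length, so the ratio measures how densely ribosomes cover the coding sequence. It does not give the number of ribosomes on a whole mRNA copy, and its RNA values also entered the choice.

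RNA of the members stood lower at each higher osmolarity held for 2 h. The median member stood at 15.9 and 15.0 scaled FPKM in the 2 Normal Condition libraries, at 13.4 and 12.9 in 500 mOSM 2h, and at 9.55 and 9.57 in 600 mOSM 2h. After 15 min at 700 mOSM it stood at 8.84 and 9.05, and after 2 h at 4.89 and 4.71, the condition that chose the members. The medians of the 2 libraries of a group differed by less than the steps along Normal Condition and the groups held at 500, 600 and 700 mOSM for 2 h, but the Normal Condition libraries differed by more than 600 mOSM 2h and 700 mOSM 15min did from each other. The cytoplasmic extract was measured, so RNA that was degraded and RNA that stayed outside the extract cannot be told apart. In such bulk samples, less RNA in every cell and fewer cells with the RNA cannot be told apart either.

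**Figure D2:**
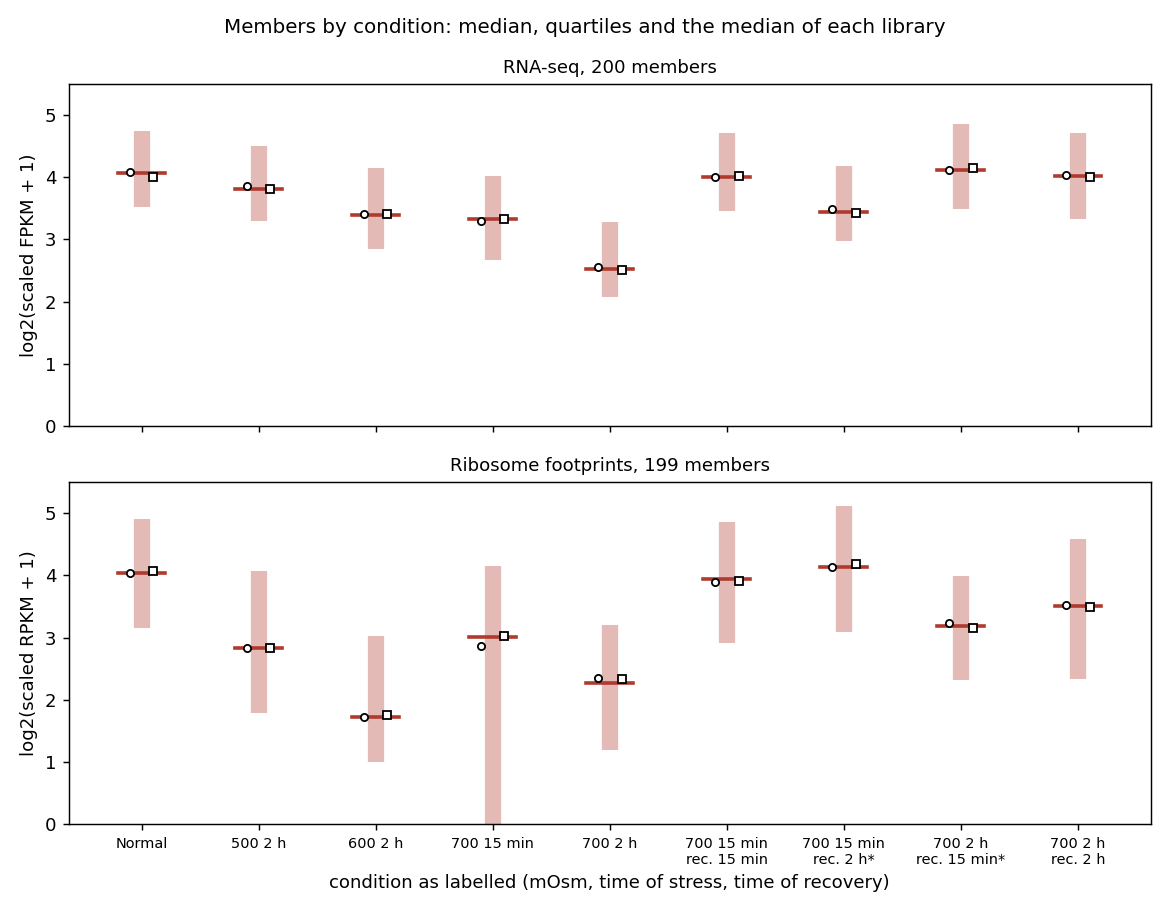
Members in each condition (horizontal axis, in the order of osmolarity, stress time and recovery time), as log2(scaled FPKM + 1) of RNA (top) and log2(scaled RPKM + 1) of footprints (bottom). Thick lines mark the median of condition means, shaded bars the quartiles over members, the open circle and square the medians of replicates 1 and 2, and the asterisk the 2 conditions whose RNA libraries have doubtful labels. RNA is lowest at 700 mOSM 2h, the condition that chose the members, while the median of scaled footprints is lowest at 600 mOSM 2h and footprints are most widely spread at 700 mOSM 15min.

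Counted by libraries, 138 of 200 members had both 500 mOSM 2h libraries below both Normal Condition libraries, where 24.9% of all 7645 transcripts did. The count was 198 of 200 at 600 mOSM 2h, where 30.1% of all transcripts did, and 196 of 200 at 700 mOSM 15min, where 44.3% did. At 700 mOSM 2h it was 200 of 200 (43.5% of all transcripts), which the choice made nearly certain. The Normal Condition libraries also entered the choice, so none of these counts is a test. The median log2 change from Normal Condition, on the scale of scaled FPKM plus 1, was −0.21 at 500 mOSM 2h, −0.62 at 600 mOSM 2h and −0.80 at 700 mOSM 15min in the members. It was −0.01, 0.00 and −0.04 in the other transcripts at the same conditions. At least 2-fold lower were 5 members at 500 mOSM 2h, 26 at 600 mOSM 2h and 50 at 700 mOSM 15min, where 0.602%, 0.536% and 2.18% of all transcripts were. At 700 mOSM 2h the members had −1.43, with quartiles of −1.59 and −1.35, and the others −0.03. In both groups held at 700 mOSM the others stood lower in each longer class of transcript length. At 700 mOSM 15min their medians were 0.22 up to 2000 nt and −0.40 above 6000 nt. At 700 mOSM 2h they were 0.27 and −0.67 in the same classes. Members above 6000 nt had −0.82 and −1.42 at these 2 conditions.

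The step between 500 and 600 mOSM did not involve the libraries that chose the members, and it was tested with limma over all 9275 transcripts. Between 600 mOSM 2h and 500 mOSM 2h, 162 of 200 members fell and 0 rose at an adjusted p under 0.05 in limma with Benjamini-Hochberg adjustment. Over all tested transcripts 10.4% fell and 6.38% rose. At an unadjusted p under 0.05 in limma, 180 members were lower and 0 higher, and a limma-voom fit on the solved reads had 165 that fell and 0 that rose. Shares over all tested transcripts belong to the main fit with adjusted p, here and in the contrasts below, and are not given for these 2 settings. The median difference of members was −0.43 on the log2 scale, with quartiles of −0.54 and −0.29 and a median SE of 0.08, against 0.01 in the other transcripts. Of the 38 members that did not pass, 35 also had a negative difference. The mean of 600 mOSM 2h was below that of 500 mOSM 2h for 197 of 200 members and for 47.4% of the others. Members of every length class took part. Up to 400 codons 21 of 28 members fell, against 198 of 3307 other transcripts of that class, and above 1600 codons 27 of 35 members did, against 55 of 260. Without the 4 RNA libraries of doubtful label, 158 members fell.

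Between 700 mOSM 15min and 600 mOSM 2h, which differ in both osmolarity and time, the members split. By limma 93 of 200 fell and 41 rose at an adjusted p under 0.05, where 37.0% of all tested transcripts fell and 24.5% rose. As shares of the members these are 46.5% and 20.5%, not far from the background. In a fit without the 4 RNA libraries of doubtful label, 92 members fell and 41 rose. The median difference in the main fit was −0.15 in members and −0.07 over all tested transcripts. The 93 that fell had a median length of 6396 nt and the 41 that rose one of 4829 nt. Their coding lengths were close, with medians of 861 codons in those that fell and 897 codons in those that rose, and the part outside coding sequence had medians of 3144 and 1863 nt in the same order. These lengths are a description of the called members, with no test.

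Almost all members rose within 15 min of release. Between 700 mOSM 15min Recovery 15min and 700 mOSM 15min, 197 of 200 members rose and 0 fell by limma at an adjusted p under 0.05, and the same counts held at an unadjusted p under 0.05 and in limma-voom. Over all tested transcripts 40.9% rose and 27.3% fell. In a fit without the 4 RNA libraries of doubtful label, 197 members rose. The median log2 difference was 0.74 in members, with quartiles of 0.54 and 0.91, against 0.07 over all tested transcripts, and 27 members were at least 2-fold higher, where 0.906% of all tested transcripts were. Among the other transcripts the share that rose was larger in each longer class of transcript length, from 10.4% up to 2000 nt to 76.1% above 6000 nt. Above 6000 nt 96.6% of members rose, with a median of 0.75 against 0.39 in the others. All members of up to 1600 codons rose. The 3 members that did not pass had 1903, 2014 and 2555 codons, with limma adjusted p of 0.603, 0.0988 and 0.294. At 700 mOSM 15min these 3 had changed from Normal Condition by −0.09, 0.13 and −0.25 on the log2 scale, close to 0 beside the members' median. Of the members, 161 both fell between 600 and 500 mOSM 2h and rose on release, where 9.27% of all tested transcripts did both. The same 2 libraries of 700 mOSM 15min enter this contrast and the one before it.

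**Figure D3:**
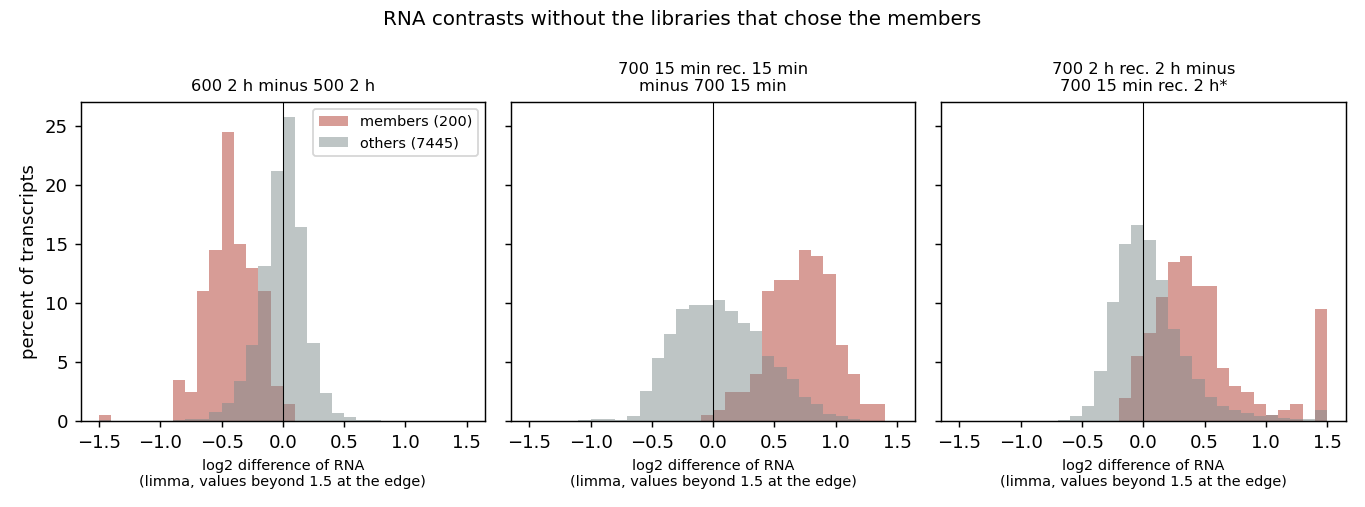
Percent of transcripts (vertical axis) by log2 difference of RNA from limma (horizontal axis, values beyond 1.5 drawn in the edge bins), for members (red) and other transcripts (grey), in 3 contrasts that do not use the libraries behind the choice of members. Members lie left of 0 for 600 mOSM 2h minus 500 mOSM 2h (median −0.43) and right of 0 for release after 15 min at 700 mOSM (median 0.74), while in the right panel, which uses RNA libraries of doubtful label (asterisk), part of them forms a tail of large rises.

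After release from 15 min at 700 mOSM the members stood close to unstressed cells, with medians of 14.9 and 15.1 scaled FPKM in 700 mOSM 15min Recovery 15min, against 15.9 and 15.0 in Normal Condition. The median log2 change from Normal Condition was −0.07. Of the 200, 86 still had both libraries below both Normal Condition libraries and 31 had both above, where 30.3% and 23.9% of all transcripts did. After 2 h at 700 mOSM and 2 h of recovery the medians were 15.4 and 15.0 scaled FPKM and the median change was −0.16. There 119 members lay below both Normal Condition libraries and 43 above, where 31.6% and 31.4% of all transcripts did. The Normal Condition libraries entered the choice, which can by itself place members below them, so these counts and changes are not tests. The same holds for every RNA value set against Normal Condition below.

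The 2 conditions with doubtful RNA labels gave unlike values. In the libraries labelled 700 mOSM 15min Recovery 2h the median member had 10.2 and 9.76 scaled FPKM, and 198 of 200 members lay below both Normal Condition libraries, where 34.0% of all transcripts did. In those labelled 700 mOSM 2h Recovery 15min it had 16.3 and 16.6 scaled FPKM, with 60 members below and 67 above, where 33.0% and 27.2% of all transcripts were. The footprints of the same 2 conditions, whose file names match their labels, stood the other way round. Their medians were 16.6 and 17.2 scaled RPKM in 700 mOSM 15min Recovery 2h and 8.35 and 7.93 in 700 mOSM 2h Recovery 15min. Ratios of footprints to RNA are therefore not given for these 2 conditions.

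Late recovery was compared with both. Between 700 mOSM 2h Recovery 2h and the libraries labelled 700 mOSM 15min Recovery 2h, 158 of 200 members rose and 0 fell by limma at an adjusted p under 0.05. At an unadjusted p under 0.05 in limma, 165 were higher and 1 lower, and limma-voom had 159 that rose and 0 that fell. Over all tested transcripts 27.8% rose and 16.8% fell. The median log2 difference was 0.36 in members and 0.03 over all tested transcripts, and 25 members were at least 2-fold higher, where 2.95% of all tested transcripts were. Against the libraries labelled 700 mOSM 2h Recovery 15min, 33 members rose and 93 fell by limma, where 37.1% of all tested transcripts rose and 26.1% fell, and the median difference was −0.12. Both contrasts share the 2 libraries of 700 mOSM 2h Recovery 2h. If the labels of the 4 libraries were exchanged, these 2 contrasts would change places.

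A small group of members stood far above the unstressed level in late recovery. In 700 mOSM 2h Recovery 2h, 12 members were at least 2-fold above Normal Condition and 0 were at least 2-fold below, where 1.79% and 0.0262% of all 7645 transcripts were. Of these 12, 5 were at least 3-fold above, a count given without the share over all transcripts. Their RNA changed from Normal Condition by a median of 1.47 on the log2 scale, and their footprints by 2.00. In 10 of the 12 footprints were at least 2-fold higher as well, where 2.43% of all 7497 transcripts had this. How often it held for other transcripts with RNA at least 2-fold higher is not given here. They had a median of 3079 nt and 420 codons, against 5669 nt and 926 codons in the other 188 members. At 700 mOSM 2h the same 12 had a median RNA change of −1.61. That low value follows from the choice, since the highest change of any member there was −1.28.

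ENSMUST00000074043, with 480 codons and 3045 nt, had the largest tested rise among the members. Its RNA stood at 141.1 and 140.5 scaled FPKM in 700 mOSM 2h Recovery 2h, and at 32.6 and 31.0 in Normal Condition. In all 7 other groups, the 2 with doubtful RNA labels included, it lay between 8.08 and 16.6 scaled FPKM, below both unstressed libraries, with the lowest values at 700 mOSM 2h. The rise over the libraries labelled 700 mOSM 2h Recovery 15min was 3.16 on the log2 scale, with an SE of 0.086 and a limma adjusted p of 5.31e-14. Over those labelled 700 mOSM 15min Recovery 2h it was 3.44, with an SE of 0.090 and a limma adjusted p of 3.26e-14. Its footprints moved alike, with 372.6 and 373.9 scaled RPKM in 700 mOSM 2h Recovery 2h and 48.1 and 42.7 in Normal Condition. The 2 footprint libraries in question were counted as 1 sample. Between 600 mOSM 2h and 500 mOSM 2h its difference was −0.02, with a limma adjusted p of 0.921, so this member was already low at 500 mOSM.

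ENSMUST00000064922, with 345 codons and 1840 nt, was the most abundant member, both in unstressed cells and in late recovery. It was picked out after its values were seen. Its RNA stood at 943.4 and 1042 scaled FPKM in 700 mOSM 2h Recovery 2h, and at 128.9 and 224.9 in Normal Condition. The unstressed libraries differ from each other for this transcript. With replicate 1 of Normal Condition alone its ratio would be 0.449, outside the limit for members, and with replicate 2 alone 0.258. Its footprints stood at 1905 and 1846 scaled RPKM in 700 mOSM 2h Recovery 2h, and at 339.8 and 339.1 in Normal Condition. RNA rose by 2.37 on the log2 scale over the libraries labelled 700 mOSM 2h Recovery 15min, with an SE of 0.105 and a limma adjusted p of 2.74e-11.

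ENSMUST00000031324 had the largest tested fall. It has 163 codons, the fewest among the members with a known coding length, in a transcript of 4128 nt. Its RNA stood at 15.6 and 16.2 scaled FPKM in 600 mOSM 2h and at 83.7 and 76.5 in 500 mOSM 2h, a log2 difference of −2.26 with an SE of 0.091 and a limma adjusted p of 8.28e-11. In Normal Condition it stood at 34.7 and 29.8, so 500 mOSM 2h lay above and 600 mOSM 2h below the unstressed level. At 700 mOSM 2h it had 10.2 and 7.72 scaled FPKM, and at 700 mOSM 15min 29.9 and 28.2, which overlaps Normal Condition. On release after 15 min it had 51.3 and 51.6, a rise of 0.80 with an SE of 0.067 and a limma adjusted p of 3.84e-08.

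The footprints of ENSMUST00000031324 followed the same order across the stress groups by means. At 700 mOSM 15min they stood at 108.1 and 80.2 scaled RPKM, which overlaps Normal Condition. The footprints stood at 98.4 and 108.7 scaled RPKM in Normal Condition, 560.9 and 566.1 at 500 mOSM 2h, 71.9 and 68.0 at 600 mOSM 2h, and 56.2 and 57.7 at 700 mOSM 2h. In the conditions with doubtful RNA labels its footprints were 418.3 and 401.5 scaled RPKM in 700 mOSM 15min Recovery 2h and 41.9 and 46.5 in 700 mOSM 2h Recovery 15min. Its RNA was 12.1 and 9.75 scaled FPKM in the libraries labelled 700 mOSM 15min Recovery 2h and 89.5 and 87.5 in those labelled 700 mOSM 2h Recovery 15min, the opposite order. In 700 mOSM 2h Recovery 2h, RNA was 28.6 and 27.6 scaled FPKM, a difference of −1.62 over the libraries labelled 700 mOSM 2h Recovery 15min, with an SE of 0.079 and a limma adjusted p of 9.50e-11.

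**Figure D4:**
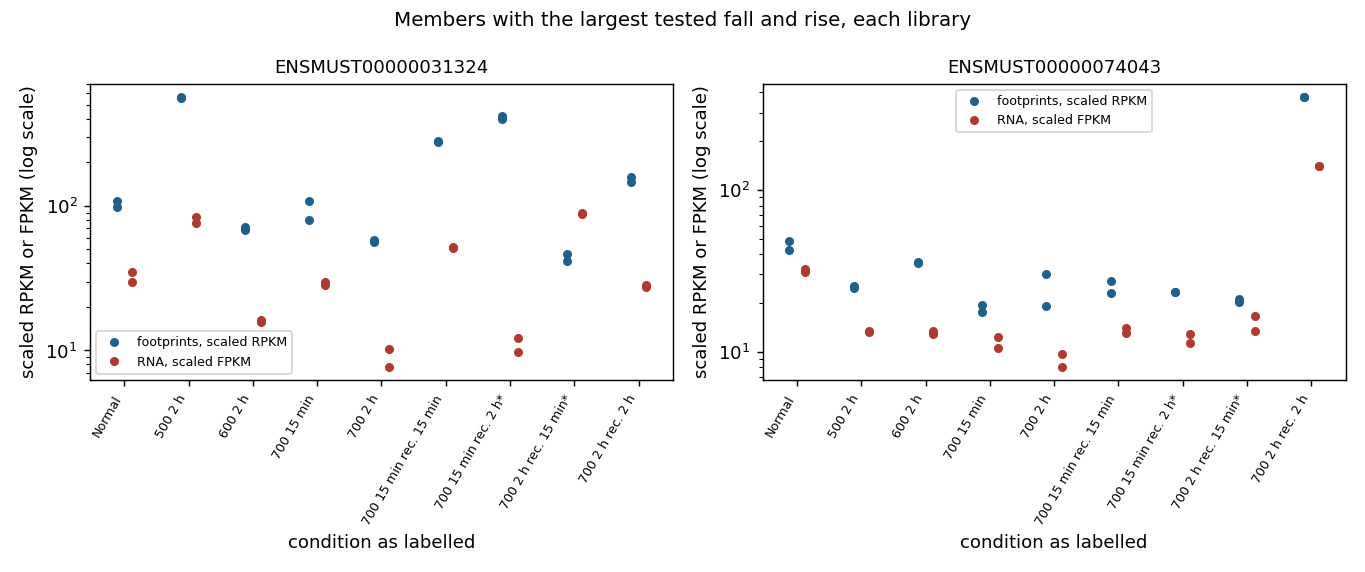
RNA in scaled FPKM (red) and footprints in scaled RPKM (blue) of 2 members on a log axis, 1 point per library, by condition in the order of osmolarity, stress time and recovery time (the asterisk marks doubtful RNA labels). ENSMUST00000031324 is high at 500 mOSM 2h and low at 600 and 700 mOSM 2h, and ENSMUST00000074043 stays below its unstressed level until 700 mOSM 2h Recovery 2h, where both libraries exceed 140 scaled FPKM.

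ENSMUST00000020408, with 490 codons and 3086 nt, had the lowest ratio of all members. Its RNA stood at 7.49 and 5.72 scaled FPKM at 700 mOSM 2h, and at 30.6 and 29.5 in Normal Condition, which is how it was chosen. At 600 mOSM 2h it had 13.7 and 15.6 scaled FPKM, and at 500 mOSM 2h 21.8 and 20.6, a log2 difference of −0.50 with an SE of 0.077 and a limma adjusted p of 0.000327. On release after 15 min it had 24.6 and 25.1 scaled FPKM, against 17.2 and 16.8 at 700 mOSM 15min, a rise of 0.52 with an SE of 0.057 and a limma adjusted p of 7.11e-07. Its footprints were unlisted in both libraries of 700 mOSM 15min and at 28.5 and 27.9 scaled RPKM in 700 mOSM 15min Recovery 15min. Unlisted transcripts may still carry ribosomes, since the lists hold few entries of under 5 reads.

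The median footprint level of the members was lower than in unstressed cells in every stress group, with the lowest scaled value at 600 mOSM 2h. The median member had 15.4 and 15.8 scaled RPKM in Normal Condition, 6.09 and 6.13 at 500 mOSM 2h, and 2.29 and 2.38 at 600 mOSM 2h. It had 6.24 and 7.15 at 700 mOSM 15min and 4.08 and 4.04 at 700 mOSM 2h. At 500 mOSM 2h, 96 of 199 members were at least 2-fold lower and 1 at least 2-fold higher, where 19.6% and 0.574% of 7497 transcripts were. At 600 mOSM 2h, 157 were lower and 0 higher, where 39.1% and 2.59% of all transcripts were. The median log2 change was −0.94 at 500 mOSM 2h and −1.87 at 600 mOSM 2h in members, against −0.18 and −0.52 in the others at the same conditions. The order of the stress groups depends on the scaling and on coding length. With values as deposited the median change was −1.85 at 600 mOSM 2h and −2.10 at 700 mOSM 2h, and the scaled medians of members of up to 400 and of 400 to 800 codons were lowest at 700 mOSM 15min.

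At 500 and 600 mOSM the footprints of members were lower than their RNA alone would give. The median change of translational efficiency (log2 change of footprints less that of RNA) was −0.79 at 500 mOSM 2h in members and −0.17 in the others. At 600 mOSM 2h it was −1.25 in members and −0.51 in the others. Footprints of the others were also lower in longer classes, with 600 mOSM 2h medians of −0.17 up to 400 codons and −1.16 above 1600. Above 1600 codons the footprint and RNA medians at 600 mOSM 2h were −1.61 and −0.55 in members and −1.16 and −0.01 in the others. At 500 mOSM 2h they were −0.94 and −0.12 in members and −0.33 and 0.03 in the others. At least 2-fold lower efficiency was found for 75 of 199 members at 500 mOSM 2h and for 114 at 600 mOSM 2h, where 19.2% and 37.9% of all transcripts had it. Footprints of 600 mOSM 2h set directly against those of 500 mOSM 2h, neither of which chose the members, had a median difference of −0.78 in members and −0.27 in the others. There 78 of 199 members were at least 2-fold lower and 0 higher, where 20.1% and 0.667% of all transcripts were.

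At 700 mOSM 15min the footprints of members differed by coding length. Over all 199 members the median footprint change was −1.16, but the quartiles were −3.03 and 0.42, with 102 at least 2-fold lower and 31 at least 2-fold higher, where 46.5% and 16.8% of all transcripts were. Among the 35 members above 1600 codons the median was 1.16, with 24 (68.6%) at least 2-fold higher and 0 lower, where 87.7% and 0.769% of the 260 other transcripts of that class were. Between 800 and 1600 codons it was −0.30 in 70 members, with 6 (8.57%) higher and 18 (25.7%) lower, where 14.7% and 22.7% of the others were. In the 66 members between 400 and 800 codons it was −2.83, with 1 higher and 59 (89.4%) lower, where 6.45% and 60.8% of the others were. In the 28 of up to 400 codons it was −3.73, with 0 higher and 25 (89.3%) lower, where 20.2% and 46.8% of the others were. The other transcripts had medians of 1.77, −0.10, −1.55 and −0.74 in the same classes, so they too were highest above 1600 codons.

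In each of the 4 classes the median of members lay below that of the other transcripts. Counting limits the lowest of these values, since only 129 and 138 of 199 members were listed in the 2 libraries of 700 mOSM 15min and the rest were set to 0. With the 135 members that would have at least 20 reads in the shallowest footprint library at their unstressed level, a limit set after the data were seen, the median change was −0.69. Of these 42.2% were at least 2-fold lower and 19.3% higher, close to 40.3% and 20.5% of the 4913 other transcripts above the same limit. RNA of the members had class medians between −0.88 and −0.71 at 700 mOSM 15min, a far narrower range than the footprints.

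**Figure D5:**
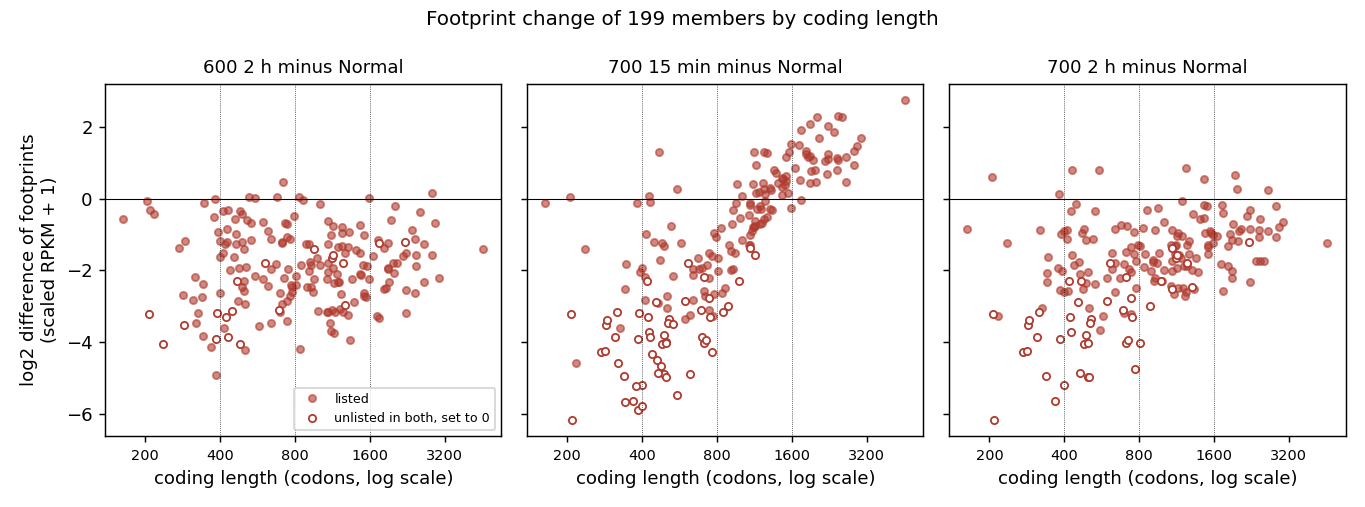
Log2 difference of footprints from Normal Condition (vertical axis, scaled RPKM plus 1) against coding length in codons (horizontal axis, log scale) for 199 members at 600 mOSM 2h, 700 mOSM 15min and 700 mOSM 2h; open circles are members unlisted in both libraries and dotted lines mark 400, 800 and 1600 codons. At 700 mOSM 15min the points climb with coding length, and 24 of the 35 members above 1600 codons (68.6%) lie above 1, where 87.7% of the other transcripts of that class, not drawn, did.

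At 700 mOSM 2h no member had footprints at least 2-fold higher than in Normal Condition and 145 of 199 were at least 2-fold lower, where 15.3% and 45.8% of all transcripts were. The members had been chosen for low RNA in this contrast, so these counts are a description. Class medians were −2.84 up to 400 codons, −2.21 between 400 and 800, −1.56 between 800 and 1600 and −0.99 above 1600, and the last of these medians had been 1.16 at 700 mOSM 15min. The other transcripts above 1600 codons moved the same way, with a median of −0.61 at 700 mOSM 2h after 1.77 at 700 mOSM 15min. The change of translational efficiency had a median of −0.29 in members and −0.60 in the others, and at 700 mOSM 15min it was −0.15 in members and −0.70 in the others. These 2 medians of the members depend on the scaling, and with values as deposited they were −0.56 at 700 mOSM 2h and −0.62 at 700 mOSM 15min.

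Footprints of 700 mOSM 15min set against those of 600 mOSM 2h had a median difference of 0.77 in members and −0.13 in the others. Of 199 members, 97 were at least 2-fold higher and 50 lower, where 19.3% and 28.6% of all transcripts were. On release after 15 min the median difference was 1.04 in members and 0.72 in the others, with 100 members at least 2-fold higher and 42 lower, where 45.7% and 17.2% of all transcripts were.

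In recovery from the short exposure the footprints of members came close to their unstressed level in the median. The median change from Normal Condition was −0.16 in 700 mOSM 15min Recovery 15min, where 4 of 199 members were at least 2-fold lower and 2 higher against 0.454% and 0.467% of all transcripts. It was 0.05 in 700 mOSM 15min Recovery 2h, with 0 lower and 5 higher against 0.147% and 0.480% of all transcripts. After the long exposure they stayed lower. The median change was −0.80 in 700 mOSM 2h Recovery 15min, with 68 members at least 2-fold lower and 0 higher, where 5.12% and 1.35% of all transcripts were. In 700 mOSM 2h Recovery 2h it was −0.61, with 49 lower and 14 higher, where 8.62% and 2.43% of all transcripts were. RNA had a median change of −0.16 there, so that the median change of translational efficiency was −0.43 in members, against −0.17 in the others.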

How the data were processed

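Ribosome footprints and cytoplasmic RNA were sequenced in 9 conditions, with 2 libraries of each kind per condition. The authors deposited, for each library, a list without header of Ensembl transcript identifiers with RPKM values for footprints and FPKM values for RNA, units taken from the names of the files. The submitters' processing notes name cutadapt, Bowtie, STAR and the build GRCm38, with no version and no step tied to them. Annotation and read counting: not given in the sources used here. Library totals, transcript lengths and whole reads were solved from the steps of the deposited values (100% whole within a relative tolerance of 1e-09, largely by construction) and checked on simulated data. RNA lists began at 1 read. Footprint lists held few entries under 5 reads (0% to 0.304% per library), and unlisted transcripts were set to 0.

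Values were scaled by median ratios (log2 factors of −0.08 to 0.03 for RNA and −0.46 to 0.24 for footprints), and changes were taken on log2(value + 1). For RNA, limma 3.58.1 (R 4.3.3) was fitted once to the 18 libraries over the 9275 transcripts with a mean of at least 2. The fit had a trend of variance on level and weights that differ between groups. Tests were two-sided with p adjusted by Benjamini-Hochberg, and RNA "rose" or "fell" where the adjusted p was under 0.05. The 5 tested contrasts leave out Normal Condition and 700 mOSM 2h, whose RNA chose the members. All else is described by values, medians and counts past 2-fold. The members and all lists were chosen with earlier results of these data known.

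Named transcripts are the members with the largest tested rise and fall, plus those with the lowest ratio and the highest level. Gene lists, markers and sequences could not be used, since none of the transcript identifiers matched the name tables used here. Alternatives were the pseudocount, filter, scaling, weights, groups in the fit, replicate block, a voom fit on the solved reads, and leaving out each library. The main fit did not pair samples by replicate number. In 6 of 36 pairs of conditions the correlation of same-numbered deviations was over 0.1, and it ranged from −0.31 to 0.31. These values cannot show whether same-numbered libraries shared a preparation. Reads are not independent molecules, so counting error from depth can understate the spread between libraries.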

Additional observations from a re-analysis of the deposited data

How the results depend on the processing

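Every tested count kept its direction and stayed within 1.5 times its value under another pseudocount, no filter, FPKM as deposited, equal weights, only the compared groups, the replicate block, a voom fit on solved reads and without single libraries, with 1 exception. Members that fell between 700 mOSM 2h Recovery 2h and the libraries labelled 700 mOSM 15min Recovery 2h numbered 0, but 1 with FPKM as deposited, 1 under the replicate block, and 0 to 1 without single libraries. With the replicate number as a block, 163 members fell between 600 and 500 mOSM 2h and 197 rose on release. Whether same-numbered libraries shared more than a number is not known, and 6 of 9 conditions lay closer on average to their own number. Over all other settings 142 to 165 members fell between 600 and 500 mOSM 2h, and 191 to 197 rose on release. The rule with a pseudocount of 0.25 chose 172 of the 200 again. The cause of the moves below was not tested.

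Median log2 changes of members from Normal Condition moved as follows. With a pseudocount of 0.25, RNA was −0.66 at 600 mOSM 2h, −0.86 at 700 mOSM 15min, −1.59 at 700 mOSM 2h and −0.56 in the libraries labelled 700 mOSM 15min Recovery 2h. Footprints were then −1.10, −2.36 and −1.94 at 500, 600 and 700 mOSM 2h, and −0.88 and −0.65 after 15 min and 2 h of recovery from 2 h of stress. Efficiency was then −0.92, −1.65 and −0.37 at 500, 600 and 700 mOSM 2h, −0.21 at 700 mOSM 15min and −0.52 in 700 mOSM 2h Recovery 2h. With values as deposited, RNA was −0.85 at 700 mOSM 15min, −1.52 at 700 mOSM 2h and −0.19 in 700 mOSM 2h Recovery 2h, and changed sign to −0.0098 in the libraries labelled 700 mOSM 2h Recovery 15min, from 0.02. Footprints as deposited were −0.91 at 500 mOSM 2h, −1.55 at 700 mOSM 15min, −2.10 at 700 mOSM 2h, −0.13 and 0.017 after 15 min and 2 h of recovery from 15 min of stress, and −0.64 in 700 mOSM 2h Recovery 2h. Efficiency as deposited was −0.73, −1.20 and −0.56 at 500, 600 and 700 mOSM 2h, −0.62 at 700 mOSM 15min and −0.044 in 700 mOSM 15min Recovery 15min. With the 135 well-read members, footprints were −0.90, −1.96 and −1.72 at 500, 600 and 700 mOSM 2h, −0.69 at 700 mOSM 15min, and −0.86 and −0.63 after 15 min and 2 h of recovery from 2 h of stress.

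Leaving out single libraries gave RNA medians of −0.25 to −0.19 at 500 mOSM 2h, −0.66 to −0.61 at 600 mOSM 2h, −0.81 to −0.79 at 700 mOSM 15min and −1.46 to −1.43 at 700 mOSM 2h. In the 4 recovery groups in the order of the opening, where both middle ones have doubtful RNA labels, they were −0.12 to −0.029, −0.56 to −0.50, −0.031 to 0.058 and −0.18 to −0.15. Footprint medians in the same 8 groups were −1.004 to −0.94, −1.92 to −1.84, −1.16 to −1.02, −1.73 to −1.72, −0.17 to −0.14, 0.022 to 0.035, −0.84 to −0.77 and −0.61 to −0.60. Efficiency medians were −0.80 to −0.74 at 500 mOSM 2h, −1.28 to −1.21 at 600 mOSM 2h, −0.29 to −0.16 at 700 mOSM 15min, −0.33 to −0.24 at 700 mOSM 2h, −0.11 to −0.041 in 700 mOSM 15min Recovery 15min and −0.48 to −0.40 in 700 mOSM 2h Recovery 2h. Depth limits the footprint values at 700 mOSM most, where 129 to 146 of 199 members were listed per library.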
